A study of Mus musculus with 93 samples.

Results

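The genes described here encode collagen chains, laminin chains, lysyl oxidases, nidogens, perlecan (Hspg2), agrin, fibronectin and Sparc, the parts from which basement membranes and the surrounding interstitial matrix are built. Members were the symbols beginning Col with a chain number, Lam with a chain letter and number, or Lox with or without a paralogue number, together with Nid1, Nid2, Hspg2, Agrn, Fn1 and Sparc, provided that the mean level reached 1 CPM (counts per 1000000 counts of the library) in at least 1 of the study's 12 groups. That rule kept 60 genes of 63 matching symbols, out of 24047 genes listed in any of 6 deposited tables. Col26a1 (highest group mean 1.40 CPM), Col8a2 (1.44 CPM) and Col10a1 (1.62 CPM) lay just inside the limit, and Col17a1 (0.574 CPM), Lamb3 (0.516 CPM) and Col2a1 (0.459 CPM) just outside it. By family the members were 6 type IV collagen chains, 10 laminin chains, 5 lysyl oxidases, 4 nidogen or heparan sulfate proteoglycan genes, 8 fibrillar, 8 FACIT (fibril-associated), 7 type VI and related, 2 multiplexin, 3 short-chain, 3 transmembrane and 2 other collagens, and Fn1 with Sparc. Only 12 members reached the limit in every group, and 3 did so in 1 group.

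The libraries came from mouse ovary and were made by Smart-seq2, which copies whole transcripts from small amounts of RNA and does not mark the strand. Wild type mice were compared with knock-out mice lacking Esr2, the gene of estrogen receptor beta, which is the main estrogen receptor of granulosa cells. Granulosa cells, the somatic cells that surround and feed the oocyte, gave 7 wild type and 7 knockout libraries from mice 4 weeks old, 5 of each genotype from mice 7 weeks old, and 12 wild type and 6 knockout libraries from mice 6 months old. For oocytes these numbers were 12 wild type and 7 knockout, then 5 and 12, then 11 and 4. The allele, the strain and any hormone treatment are not given in the sources used here.

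A basement membrane is a sheet in which a laminin network held to the cell surface and a type IV collagen network are linked by nidogens and by heparan sulfate proteoglycans such as perlecan and agrin. In the ovary such a sheet, the basal lamina, encloses the granulosa cells of each follicle and separates them from the vascular theca, and its composition is known to change while the follicle grows. Granulosa cells make much of this sheet themselves and also lay down small patches of similar matrix between one another, whereas fibrillar collagens come mainly from theca and stroma.

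Total counts per library ranged from 702731 to 6469427 in granulosa cells and from 1814959 to 7751961 in oocytes. Esr2 was at 0 in all 18 knockout granulosa libraries, while wild type granulosa cells held 30.3 ± 9.69 CPM (SD, n = 7) at 4 weeks, 25.7 ± 6.75 (n = 5) at 7 weeks and 11.5 ± 4.64 (n = 12) at 6 months. Wild type oocytes held means of 88.0, 69.8 and 73.2 CPM in the same order, and Esr2 was above 0 in 1 of 7 knockout oocyte libraries at 4 weeks and in 2 of 12 at 7 weeks. All 12 granulosa markers had counts in each granulosa table, and their sum averaged 2755 to 6039 CPM in the 6 granulosa groups. In the oocyte tables the defining granulosa genes Amh, Fshr and Foxl2 were not listed, which gives no level for them. Other genes of that list did have counts in oocyte libraries, and sums for the 7 week wild type oocytes are given below. The labels name no animals, litters or preparation batches, so the p-values below measure only the spread between these libraries. Each age of each cell type is a table of its own, and age and cell type cannot be told apart from table. In bulk RNA, fewer cells of a type and less RNA per cell cannot be told apart.

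In wild type granulosa cells, levels divided by transcript length were led by Sparc, a collagen-binding matricellular protein, with 929 CPM per kilobase at 4 weeks. Far below it came Col4a2 (50.8 CPM per kilobase), Lox (46.0), Col4a1 (46.0), Fn1 (40.0), Col18a1 (27.0), Lama1 (24.6), Col6a1 (21.1), Lamb1 (20.2) and Loxl3 (20.2). These leading members held a type IV pair, a laminin alpha and beta chain and collagen XVIII, beside Lox, Fn1, Col6a1 and Loxl3. A laminin gamma chain, a nidogen, perlecan and agrin were not among them. The interstitial chains Col1a1, Col1a2 and Col3a1 had group means of at most 5.36, 7.51 and 4.93 CPM in granulosa cells.

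In Esr2 knockout granulosa cells the type IV chains Col4a1 and Col4a2, nidogen 2 and the lysyl oxidase-like genes Loxl1, Loxl2 and Loxl3 were higher at 1 or more ages. Lower were the type V chain Col5a1, the type VI chain Col6a3 and, at 4 weeks, Col18a1, Fn1 and Lama4, while the other tested type IV, V and VI chains did not pass. At 4 weeks 10 of 33 tested members passed an adjusted p of 0.05 in edgeR's quasi-likelihood test, 5 higher and 5 lower in knockouts, or 30.3% of those tested. Over all genes at that age 2.33% passed. At 7 weeks 5 of 32 tested members passed (15.6%), 4 higher and 1 lower, beside 0.8% of all genes. At 6 months 11 of 31 passed (35.5%), 6 higher and 5 lower, beside 12.6% of all genes. The calls ran in both directions at each age. The members' median log2 fold change was near that of all genes at 4 weeks (0.03 against -0.02) and 6 months (0.01 against -0.02), and was 0.32 against 0.01 at 7 weeks. In all, 34 members could be tested at 1 or more ages and 16 passed somewhere, 8 of them higher and 8 lower, and none passed in opposite directions. Col4a2 and Nid2 were higher and Col6a3 lower at every age. Members that passed at 2 ages included Col4a1, Loxl1 and Col5a1, and 9 passed at 1 age. The remaining 26 members had too few counts in granulosa cells for a test or were not listed there.

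**Figure D1:**
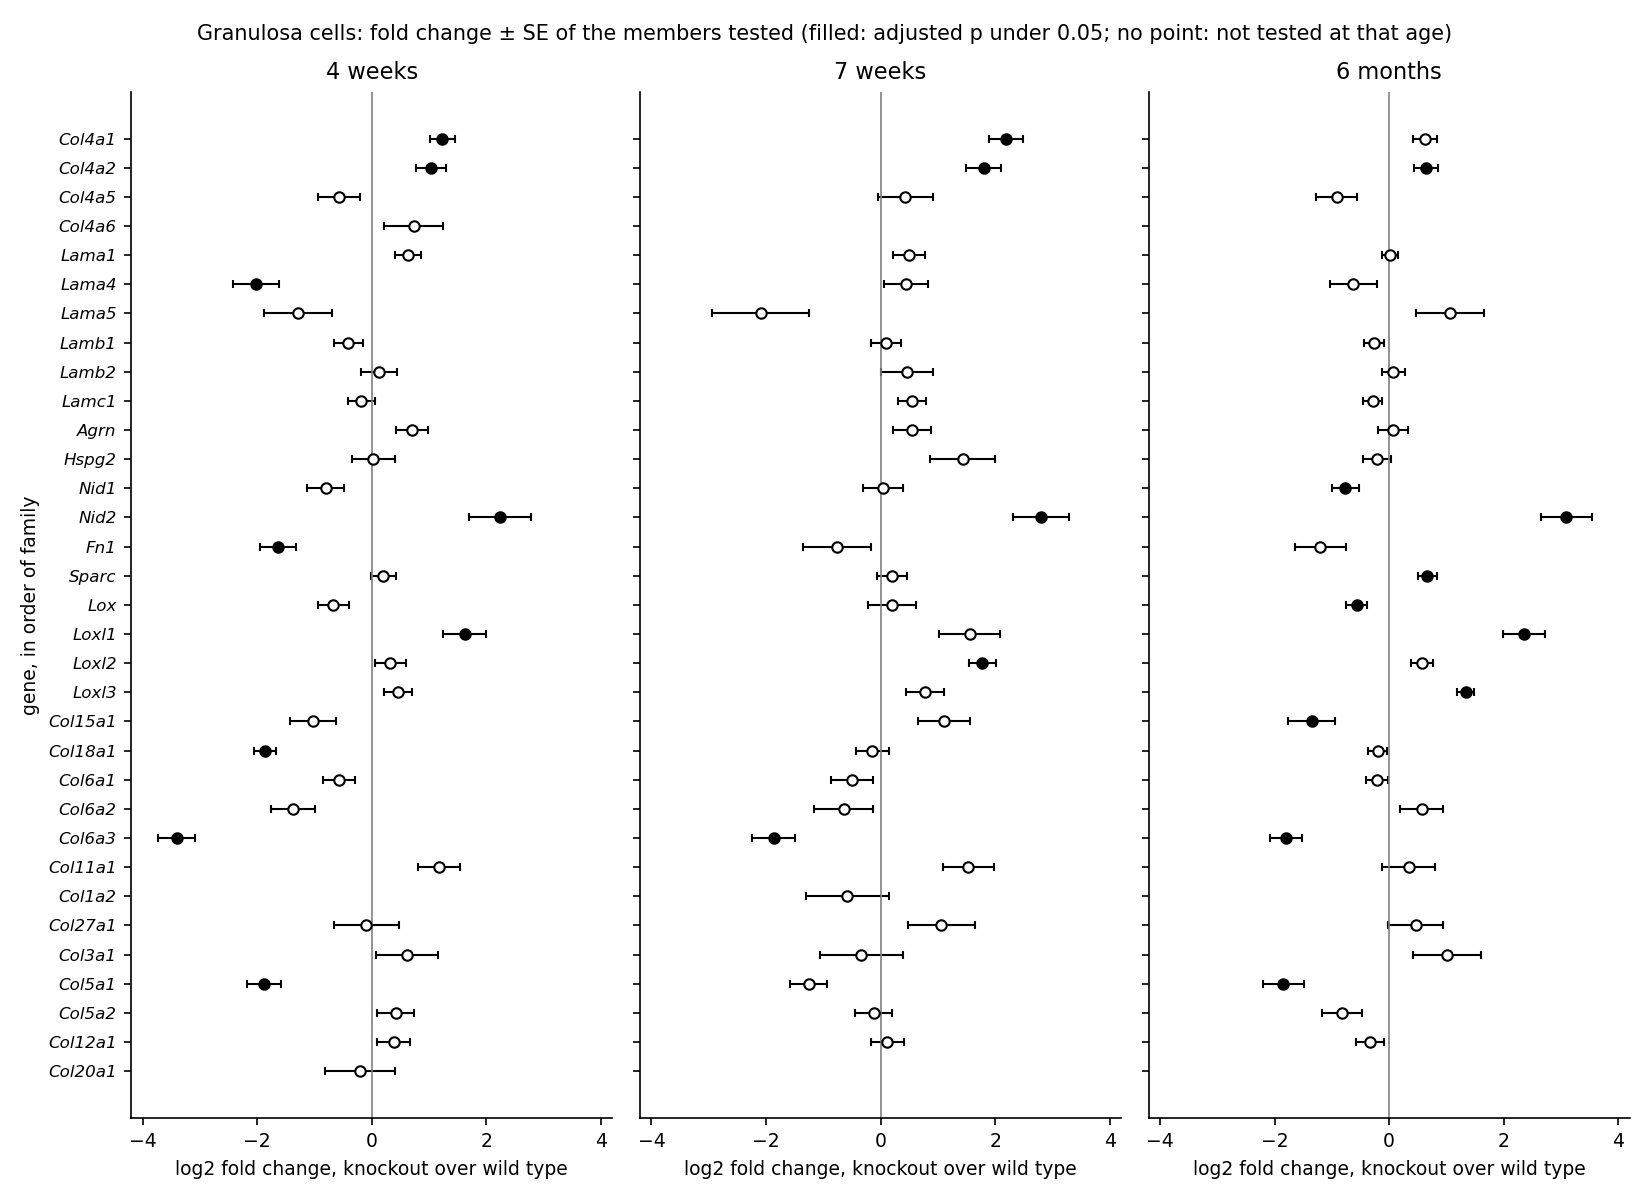
Log2 fold changes of knockout against wild type granulosa cells (x axis) for 33 members tested at 1 or more ages (y axis, by family), at 4 weeks, 7 weeks and 6 months. Points are edgeR estimates, bars are 1 SE and filled points passed the test; Nid2 and Col4a2 lie to the right and Col6a3 to the left at each age, while Col18a1 is far to the left at 4 weeks (-1.87) and near 0 at 7 weeks (-0.14).

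Type IV collagen forms the covalent network of the basement membrane, and its most widespread heterotrimer joins the products of Col4a1 and Col4a2. These genes lie head to head on chromosome 8, Col4a1 on the minus strand at chr8:11198423-11312826 and Col4a2 on the plus strand at chr8:11312805-11449287 (GRCm38), so that their first exons overlap by 22 bases. That overlap is shown because it is the only stretch the pair shares at its start sites, written on the plus strand with a GC box (GGGCGG) in capitals.
Col4a2 and Col4a1 shared start, chr8:11312805-11312826: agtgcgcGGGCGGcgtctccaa

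At 7 weeks the Col4a1 levels of the 5 knockout granulosa libraries were 890, 1132, 1480, 1079 and 705 CPM, and those of the 5 wild type libraries 225, 97.7, 283, 242 and 267 CPM. Every knockout library lay above every wild type library. The means were 1057 ± 290 and 223 ± 73.3 CPM (SD, n = 5 each), a log2 fold change of 2.19 ± 0.29 (SE, adjusted p = 0.00299). Col4a2 behaved alike, with 900, 725, 1229, 966 and 705 CPM in knockouts and 184, 107, 367, 312 and 276 CPM in wild type (log2 1.80 ± 0.30, adjusted p = 0.0128), again without overlap. At 4 weeks Col4a1 ran from 485 through a median of 766 to 947 CPM in 7 knockout libraries and from 170 through 277 to 553 CPM in 7 wild type libraries. The ranges met only through wild type library 7 and knockout library 7, and the log2 fold change was 1.23 ± 0.22 (adjusted p = 0.00214). Col4a2 at 4 weeks was 515 to 1053 CPM in knockouts and 162 to 639 CPM in wild type, with overlapping groups and a log2 fold change of 1.03 ± 0.26 (adjusted p = 0.0294). By 6 months the differences were smaller. Col4a2 was 345 ± 75.9 CPM (n = 6) against 247 ± 105 (n = 12), log2 0.65 ± 0.21 with an adjusted p of 0.0403, and Col4a1 was 340 ± 82.0 against 246 ± 118 CPM, log2 0.62 ± 0.21, which missed the threshold (adjusted p = 0.0513).

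The ratio of Col4a1 to Col4a2 CPM within a library, not corrected for length, had group means near 1. At 4 weeks it was 0.992 ± 0.286 in wild type and 1.10 ± 0.223 in knockout granulosa libraries. At 7 weeks it was 0.930 ± 0.186 and 1.17 ± 0.234, and at 6 months 1.00 ± 0.189 and 0.994 ± 0.195. The genotypes' ratios overlapped at each age, with single libraries between 0.678 and 1.56, and their difference was not tested. Of the other chains, Col4a5 was 14.1 ± 8.10 CPM in wild type and 9.56 ± 4.45 in knockout granulosa cells at 4 weeks and did not pass at any age (log2 -0.57, 0.43 and -0.91). Col4a6, tested at 4 weeks only, was 2.25 ± 1.69 CPM in wild type and 4.04 ± 2.09 in knockouts and did not pass (log2 0.73 ± 0.51). Both of these encode chains of a second type IV network. Col4a3 and Col4a4, chains of the network best known from kidney and lung, had granulosa means of at most 0.437 and 2.10 CPM and too few counts to test. The 4 week Col4a2 call ended when any of 9 libraries was left out singly (knockout 3, 4, 5 or 6, or wild type 1, 2, 3, 5 or 6), with log2 values between 0.89 and 1.23. The 6 month call ended for 8 of 18 libraries (knockout 1, 2 or 5, or wild type 5, 6, 7, 10 or 11; 0.54 to 0.76), and the 7 week call held for each single library but reached an adjusted p of 0.0723 (log2 1.72) without the pair of libraries below 1000000 counts, wild type 1 and knockout 1.

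Nidogens bridge the laminin and collagen networks, and the pair of paralogues moved differently. Nid2 (chr14:19751265-19811787) was low in wild type granulosa cells. At 7 weeks it was at 14.0, 13.1, 5.44, 15.5 and 10.2 CPM in knockout libraries and 1.42, 2.04, 1.26, 2.20 and 0.775 CPM in wild type libraries. The groups did not overlap (log2 2.80 ± 0.49, adjusted p = 0.0142). At 4 weeks knockouts ran from 3.91 through 7.69 to 12.5 CPM and wild type from 0 through 1.73 to 3.08 CPM, also without overlap (log2 2.24 ± 0.54, adjusted p = 0.0254). At 6 months knockouts ran from 6.95 through 9.78 to 13.1 CPM and wild type from 0 through 1.03 to 4.22 CPM, without overlap (log2 3.09 ± 0.45, adjusted p = 1.33e-04). Nid2 was therefore separated between genotypes at each age, in tables that share no library. Nid1, the more abundant paralogue, had a lower mean in knockouts at 4 weeks (22.4 ± 10.3 against 37.0 ± 17.3 CPM, log2 -0.81 ± 0.33, adjusted p = 0.312), was level at 7 weeks (log2 0.05 ± 0.34) and passed as lower at 6 months (19.0 ± 5.94 against 35.3 ± 13.5 CPM, log2 -0.77 ± 0.24, adjusted p = 0.0364). Exons of Nid2 overlap those of the antisense gene Rtraf by 437 bases, and the counting is not stated to use strand. Rtraf did not pass the test in granulosa cells (log2 0.08 at 4 weeks, 0.23 at 7 weeks and -0.04 at 6 months). Nid1 shares 143 exonic bases with the antisense gene Gm48682. The 4 week Nid2 call ended without knockout library 3, 5 or 7 or wild type library 6 or 7 (log2 2.03 to 2.48). The 7 week call ended without wild type library 3 (log2 2.73, adjusted p = 0.0647) and without the low-count pair (log2 2.74, adjusted p = 0.0616). No single library ended the 6 month Nid2 call, while the 6 month Nid1 call ended without any of 8 libraries (knockout 1, 2, 3, 5 or 6, or wild type 2, 5 or 8; log2 -0.90 to -0.69).

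Perlecan and agrin, the heparan sulfate proteoglycans of basement membranes, did not pass the test at any age. Hspg2 was 180 ± 118 CPM in the 4 week knockout granulosa libraries, against 170 ± 86.7 in wild type. At 7 weeks its libraries held 71.4, 111, 465, 182 and 220 CPM in knockouts and 14.2, 34.4, 118, 140 and 59.5 CPM in wild type, overlapping ranges with a log2 fold change of 1.43 ± 0.56 (adjusted p = 0.211). Agrn gave log2 fold changes of 0.70, 0.55 and 0.07 at the 3 ages, with adjusted p of 0.309, 0.37 and 0.87.

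Laminins are cross-shaped trimers of an alpha, a beta and a gamma chain, and 7 of the 10 chains could be tested in granulosa cells. The common chains did not pass at any age. Lama1, a laminin alpha chain of early and epithelial basement membranes, was 377 ± 117 CPM in knockouts and 235 ± 85.0 in wild type at 4 weeks (log2 0.64 ± 0.22, adjusted p = 0.189), 314 ± 105 and 213 ± 61.5 at 7 weeks, and 124 ± 32.2 and 134 ± 23.7 at 6 months. Lamb1, Lamb2 and Lamc1 had log2 fold changes between -0.41 and 0.55. Lama5 gave -1.29 ± 0.59, -2.09 ± 0.85 and 1.06 ± 0.60 at the 3 ages, at means of at most 6.83 CPM. Lama3, an alpha chain of epithelial laminins, had granulosa means of 0.754 to 4.83 CPM and too few counts for a test, and Lamb3 lay below the 1 CPM limit. Lamc3 was at most 1.73 CPM in granulosa cells.

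Lama4 (chr10:38965515-39110188), an alpha chain of vascular and stromal basement membranes, was lower in knockouts at 4 weeks. Knockout libraries ran from 0.711 through 2.97 to 4.41 CPM and wild type from 5.48 through 12.0 to 17.8 CPM, without overlap (log2 -2.02 ± 0.40, adjusted p = 0.00559). At 7 weeks its knockout mean was above the wild type mean (7.99 ± 1.93 against 5.39 ± 1.99 CPM, log2 0.44 ± 0.39, adjusted p = 0.544) and at 6 months below it (3.90 ± 2.18 against 7.02 ± 4.18, log2 -0.62 ± 0.40, adjusted p = 0.294), neither past the test. The endothelial markers summed to 34.5 CPM in wild type and 26.1 CPM in knockout granulosa cells at 4 weeks, and Tek, Emcn and Erg were not listed. Lama4 passed with that sum as a covariate, and did not with the erythroid sum (log2 -1.80, adjusted p = 0.53). Leaving out any single library did not end the 4 week Lama4 call.

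Lysyl oxidases cross-link collagen and elastin. Loxl1, Loxl2 and Loxl3 each passed as higher in knockout granulosa cells at 1 or more ages, whereas Lox passed as lower at 6 months. Loxl1 (chr9:58287738-58313186), known for elastic fibre assembly, ran from 12.2 through 29.6 to 40.8 CPM in knockouts and from 3.46 through 6.12 to 17.5 CPM in wild type at 4 weeks. These groups overlapped (log2 1.62 ± 0.38, adjusted p = 0.0208). At 6 months Loxl1 was 18.3 ± 11.6 CPM (8.07 to 40.3) against 4.15 ± 2.28 (1.36 to 8.47), a log2 fold change of 2.35 ± 0.36 (adjusted p = 2.18e-04), with ranges that barely met. At 7 weeks it did not pass (log2 1.56 ± 0.53, adjusted p = 0.166).

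Loxl2 (chr14:69609068-69695834), which cross-links type IV collagen, was at 132, 127, 153, 114 and 92.2 CPM in the 7 week knockout libraries and at 44.1, 24.2, 38.7, 36.4 and 29.9 CPM in the wild type libraries. All knockouts lay above all wild types (log2 1.78 ± 0.24, adjusted p = 0.00299), and the call held without each library in turn and without the low-count pair. At 4 weeks its means were 84.4 ± 17.6 and 65.2 ± 31.4 CPM (log2 0.32 ± 0.27, adjusted p = 0.837) and at 6 months 74.2 ± 29.7 and 54.7 ± 17.5 CPM (log2 0.57 ± 0.19, adjusted p = 0.0523). Loxl2 shares 301 exonic bases with the antisense gene Gm27177. Loxl3 ran from 92.2 through 124 to 155 CPM in the 6 month knockouts and from 41.0 through 53.4 to 77.5 CPM in wild type, without overlap (log2 1.33 ± 0.15, adjusted p = 6.87e-06). Its value is uncertain, because 535 exonic bases of Loxl3 (chr6:83034173-83052562) overlap the antisense gene Htra2, which was itself higher at 6 months (log2 0.90 ± 0.18, adjusted p = 0.00257). At 4 and 7 weeks neither Loxl3 (log2 0.45 and 0.77) nor Htra2 (0.17 and 0.18) passed.

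Lox, the founding member of the family, was lower at 6 months at 138 ± 40.0 CPM (101 to 211) against 224 ± 70.5 (124 to 337), with overlapping groups (log2 -0.57 ± 0.19, adjusted p = 0.045). That call was near the threshold and ended when any of 12 of the 18 libraries was left out (knockout 1, 2, 3, 5 or 6, or wild type 2, 5, 6, 7, 8, 11 or 12; log2 -0.68 to -0.50). The 4 week Loxl1 call ended without knockout library 3, 5, 6 or 7 or wild type library 7 (log2 1.43 to 1.90). Loxl4 had too few counts for a test in granulosa cells, with means of at most 2.82 CPM.

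**Figure D2:**
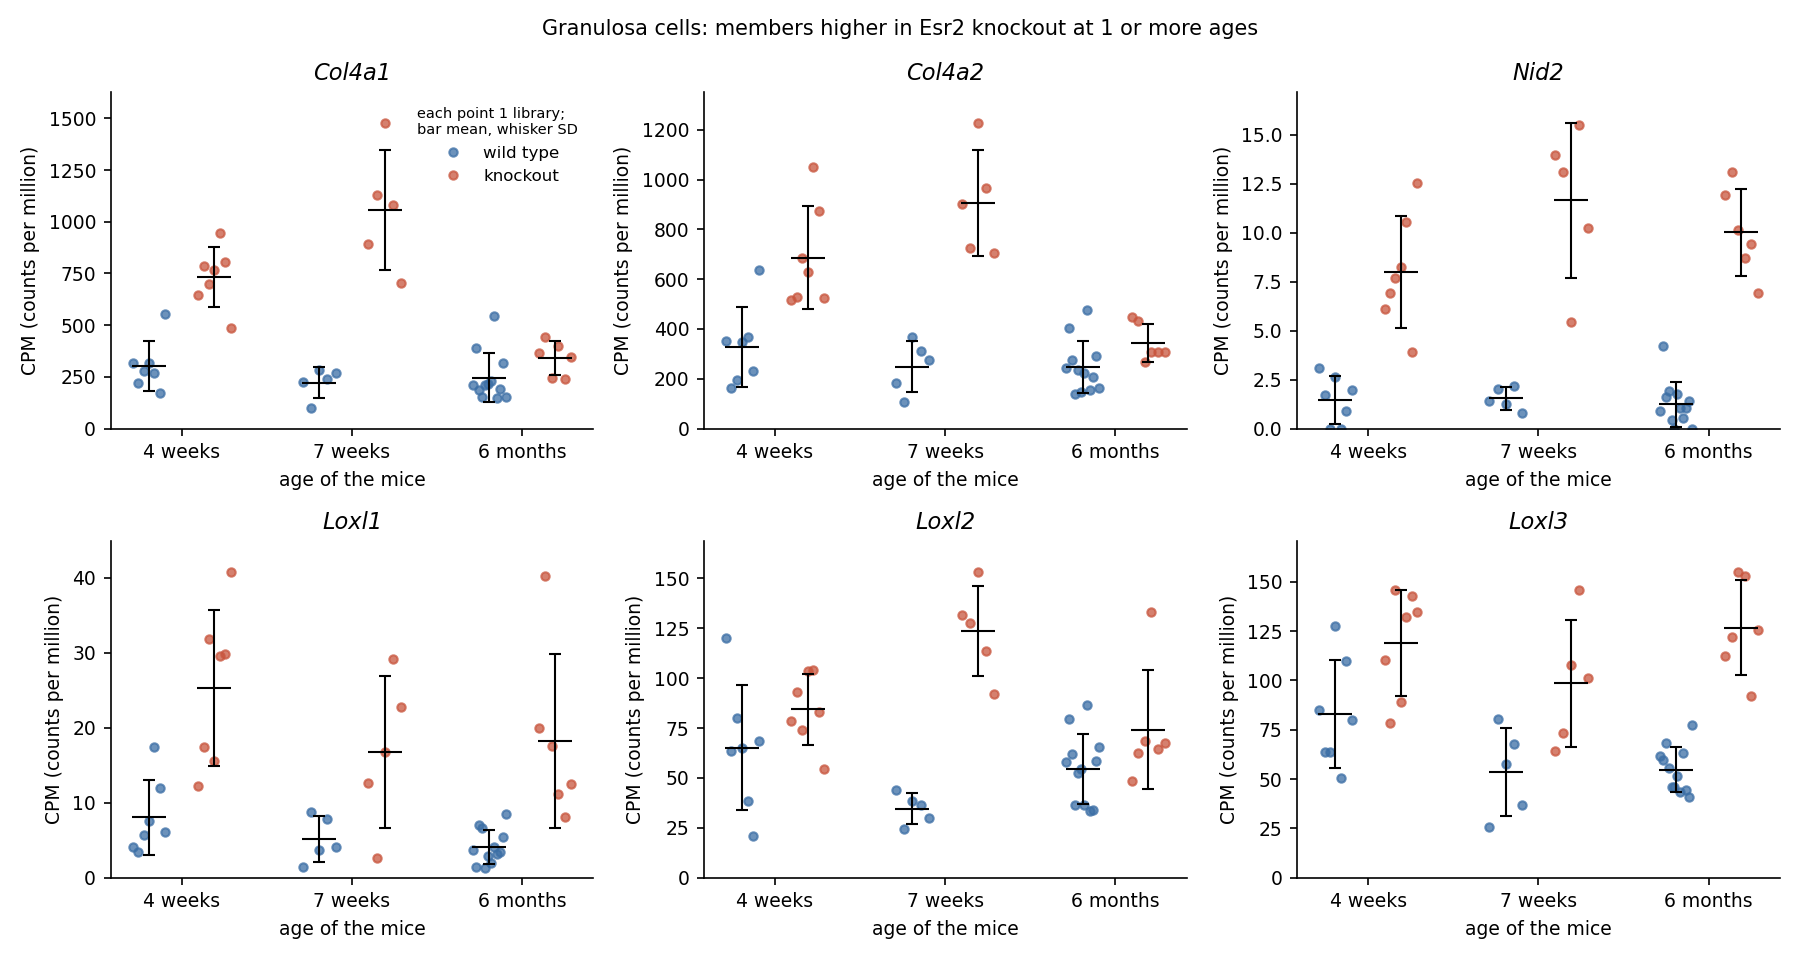
Levels (CPM) in each granulosa library of Col4a1, Col4a2, Nid2, Loxl1, Loxl2 and Loxl3, with wild type and knockout side by side at 4 weeks, 7 weeks and 6 months. Points are libraries and bars mark group means with 1 SD; at 7 weeks the knockout points of Col4a1 (705 to 1480) and Loxl2 (92.2 to 153) all lie above the wild type points.

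Type VI collagen forms beaded filaments next to basement membranes, and only its large alpha 3 chain passed the test. Col6a3 (chr1:90765923-90843971, minus strand) ran from 3.01 through 5.41 to 6.27 CPM in knockout and from 18.2 through 56.8 to 94.0 CPM in wild type granulosa cells at 4 weeks. No knockout library came near a wild type library, and the log2 fold change was -3.41 ± 0.33 (adjusted p = 4.66e-06). At 7 weeks knockouts were at 7.00, 4.36, 16.3, 7.53 and 11.1 CPM and wild types at 56.9, 22.8, 20.6, 31.4 and 38.8 CPM, again without overlap (log2 -1.86 ± 0.37, adjusted p = 0.034). At 6 months the means were 8.72 ± 4.98 and 32.1 ± 9.41 CPM, and the ranges overlapped between 11.3 and 16.9 CPM (log2 -1.80 ± 0.29, adjusted p = 2.89e-04). Col6a1, the partner chain with the higher level, fell short of the test at each age (60.8 ± 21.7 against 86.4 ± 36.4 CPM at 4 weeks; log2 -0.57, -0.49 and -0.21), and so did Col6a2 (6.48 ± 2.62 against 15.9 ± 8.84 CPM at 4 weeks, log2 -1.37 ± 0.38, adjusted p = 0.0623). The 7 week Col6a3 call ended without knockout library 1, 2 or 5 or wild type library 1, 2, 4 or 5 (log2 -2.14 to -1.64), and without the low-count pair it was -1.58 with an adjusted p of 0.119. At 4 weeks and 6 months no single library ended the Col6a3 call.

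Col5a1 (chr2:27886425-28039514, plus strand), the chain of type V collagen that starts and limits the width of collagen fibrils, was the fibrillar member that passed. At 4 weeks knockouts ran from 6.01 through 13.2 to 20.3 CPM and wild types from 23.0 through 43.6 to 76.8 CPM, without overlap (log2 -1.88 ± 0.30, adjusted p = 6.58e-04). At 7 weeks the libraries held 8.40, 13.1, 18.0, 17.7 and 13.9 CPM against 42.7, 17.4, 44.0, 24.5 and 41.1 CPM. There 2 knockout libraries stood above the lowest wild type library, and the test was not passed (log2 -1.26 ± 0.32, adjusted p = 0.0771). At 6 months knockouts were at 9.71 ± 3.23 CPM and wild types at 38.5 ± 22.4 CPM (log2 -1.85 ± 0.36, adjusted p = 0.0022), with the groups meeting at 14.8 CPM. Its partner Col5a2 did not pass at any age (log2 0.42, -0.12 and -0.82). Col5a1 shares 99 and 113 exonic bases with the antisense genes 2810430I11Rik and Gm13372.

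Collagen XVIII and collagen XV are the multiplexins, collagens of basement membranes whose ends are the sources of endostatin and restin. Col18a1 (chr10:77052178-77166548, minus strand) ran from 41.9 through 50.3 to 68.5 CPM in knockout and from 133 through 179 to 247 CPM in wild type granulosa cells at 4 weeks. The groups were far apart (log2 -1.87 ± 0.19, adjusted p = 5.29e-06). At 7 weeks the means were 147 ± 45.2 and 156 ± 50.7 CPM (log2 -0.14 ± 0.28, adjusted p = 0.806) and at 6 months 148 ± 35.2 and 190 ± 45.4 CPM (log2 -0.20 ± 0.17, adjusted p = 0.427). Col15a1 passed only at 6 months, at 5.42 ± 3.82 CPM (1.53 to 11.3) in knockouts against 16.4 ± 10.2 (7.12 to 36.5) in wild type (log2 -1.35 ± 0.41, adjusted p = 0.0328). That call ended without knockout library 3, 4, 5 or 6 or wild type library 2 or 8 (log2 -1.73 to -1.15).

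The bases upstream of the 3 collagen genes with non-overlapping, lower levels at 4 weeks are shown because Esr2 encodes a transcription factor and the windows were searched for its response element. Each sequence is the 250 bases before the annotated RefSeq start (GRCm38.p6), read 5′ to 3′ on the gene's own strand, with GC boxes (GGGCGG or CCGCCC) and CCAAT boxes (CCAAT or ATTGG) in capitals. Col18a1 has another annotated start further into the gene, and gene-level counts do not tell which start was used.
Col6a3, chr1:90843972-90844221, minus strand: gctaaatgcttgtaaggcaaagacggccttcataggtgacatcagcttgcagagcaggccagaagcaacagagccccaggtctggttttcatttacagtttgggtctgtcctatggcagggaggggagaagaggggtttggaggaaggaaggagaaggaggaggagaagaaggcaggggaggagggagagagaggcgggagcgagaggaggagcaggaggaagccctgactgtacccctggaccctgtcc
Col5a1, chr2:27886175-27886424, plus strand: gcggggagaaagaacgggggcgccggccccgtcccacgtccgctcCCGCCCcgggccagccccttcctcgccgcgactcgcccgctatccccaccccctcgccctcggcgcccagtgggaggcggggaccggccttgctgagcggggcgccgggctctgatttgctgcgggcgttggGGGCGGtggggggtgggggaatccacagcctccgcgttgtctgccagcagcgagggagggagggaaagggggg
Col18a1, chr10:77166531-77166780, minus strand: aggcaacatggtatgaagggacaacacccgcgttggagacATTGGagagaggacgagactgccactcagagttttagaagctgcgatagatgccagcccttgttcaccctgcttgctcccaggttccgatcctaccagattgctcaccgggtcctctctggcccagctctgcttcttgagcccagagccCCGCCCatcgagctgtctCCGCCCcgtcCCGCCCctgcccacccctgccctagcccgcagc

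No window held the full estrogen response element GGTCANNNTGACC. Searched on both strands over 300 bases (250 before and 50 after each start), that element was in 0 of 43 windows of the 40 members with a promoter entry and in 0.07% of all 32851 windows of the table. Its half-site GGTCA was in 32.6% of member windows and 40.5% of all windows. The GC box GGGCGG was in 67.4% of member windows (29 of 43) and 35.7% of all windows. CCAAT was in 27.9% against 37.4% and TATAAA in 6.98% against 13.6%. Some windows belong to alternative starts of 1 gene, and the Col4a1 and Col4a2 windows overlap. A match is a run of letters only, and the absence of one says nothing about the receptor.

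Fibronectin, the adhesive glycoprotein on which cells assemble other matrix, was lower at 4 weeks. Fn1 (chr1:71585520-71653200) ran from 46.1 through 107 to 153 CPM in knockouts and from 92.8 through 277 to 579 CPM in wild types (log2 -1.64 ± 0.31, adjusted p = 0.00362), with overlapping groups. At 7 weeks 4 of the 5 knockout libraries held 48.6 to 137 CPM and knockout library 1 held 564 CPM, beside 149 to 406 CPM in wild type (log2 -0.75 ± 0.59, adjusted p = 0.5). At 6 months the means were 67.6 ± 40.9 and 166 ± 101 CPM (log2 -1.20 ± 0.45, adjusted p = 0.08). Fn1 shares 227 exonic bases with the antisense gene Apol7d. Sparc, the most abundant member, passed only at 6 months, at 3052 ± 660 CPM against 2120 ± 326 (log2 0.67 ± 0.17, adjusted p = 0.0126), with 5 of 6 knockouts above the wild type median.

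**Figure D3:**
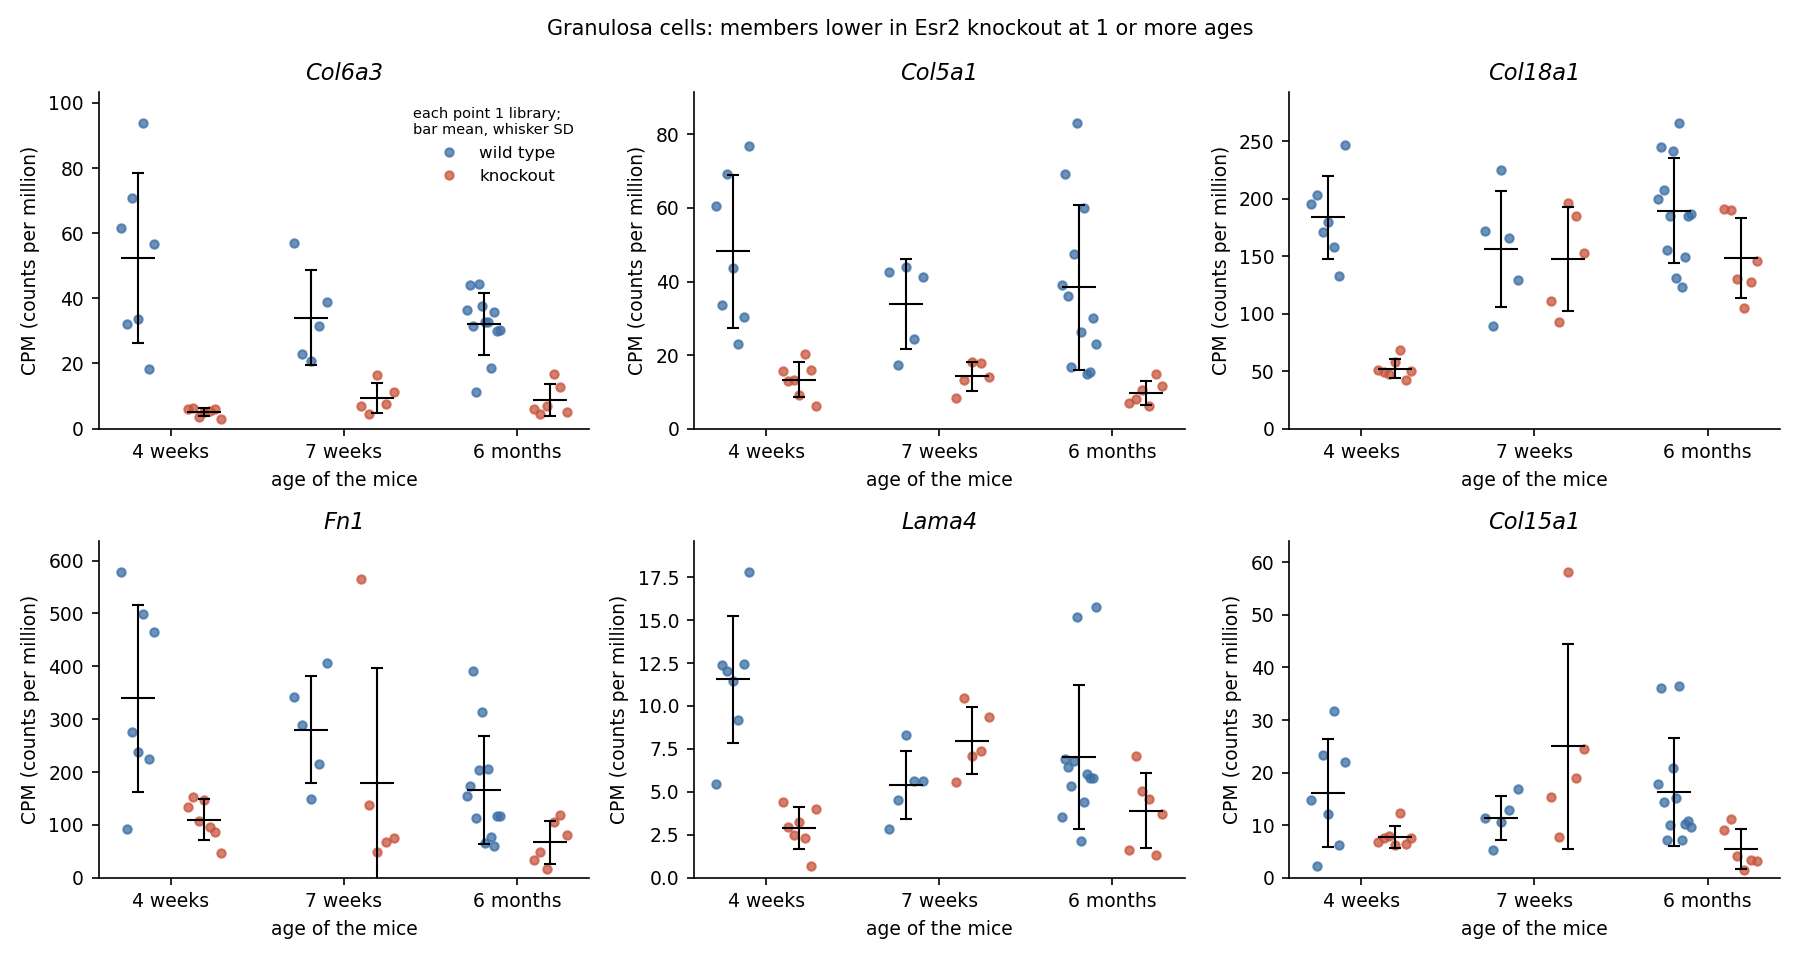
Levels (CPM) in each granulosa library of Col6a3, Col5a1, Col18a1, Fn1, Lama4 and Col15a1, with wild type and knockout side by side at 4 weeks, 7 weeks and 6 months. Points are libraries and bars mark group means with 1 SD; at 4 weeks the knockout points of Col6a3 (3.01 to 6.27) and Col18a1 (41.9 to 68.5) all lie below the wild type points, and at 7 weeks those of Col18a1 lie among them.

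The other fibrillar and fibril-associated chains passed no knockout comparison, and their granulosa group means were at most 35.9 CPM. Col11a1, a minor fibrillar chain, was 26.2 ± 5.93 CPM in knockouts and 11.7 ± 9.53 in wild type at 4 weeks (log2 1.17 ± 0.36, adjusted p = 0.105) and 13.5 ± 3.51 against 5.08 ± 3.74 CPM at 7 weeks (log2 1.53 ± 0.44, adjusted p = 0.111). Col12a1, the FACIT chain with the highest granulosa level, was 35.9 ± 16.2 against 26.4 ± 9.31 CPM at 4 weeks (log2 0.38 ± 0.29). Col8a1, a short-chain collagen of vessel walls, is named because its levels stood out after they were seen, and it had too few counts for the test. It held 1.96 to 17.8 CPM in knockouts and 0.278 to 2.30 CPM in wild type at 4 weeks, 1.75 to 6.83 and 0 to 1.26 CPM at 7 weeks, and 0.195 to 3.71 and 0 to 1.93 CPM at 6 months. The 7 week groups did not overlap. Col9a2, Col16a1, Col20a1, Col7a1, Col10a1, Col8a2 and Col26a1 had granulosa means of at most 4.73 CPM, and Col13a1, Col19a1, Col22a1 and Col28a1 were listed only in oocyte tables.

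Differences of the knockout effect between ages were tested by an interaction term fitted over all 6 granulosa groups, in which 41 members were tested. The Col18a1 effect was higher at 7 weeks than at 4 weeks by 1.72 ± 0.30 on the log2 scale (adjusted p = 0.0151, edgeR), the only member of that contrast to pass, beside 0.00699% of all genes. It was higher at 6 months than at 4 weeks by 1.66 ± 0.27 (adjusted p = 3.6e-04), again as the only member, beside 0.657% of all genes. Between 7 weeks and 6 months 4 members (9.76%) had a lower effect at 6 months, a share near the 10.4% of all genes that passed in either direction: Col4a1 (-1.56 ± 0.36, adjusted p = 0.0129), Col15a1 (-2.44 ± 0.65, adjusted p = 0.0196), Loxl2 (-1.22 ± 0.35, adjusted p = 0.0262) and Col4a2 (-1.15 ± 0.39, adjusted p = 0.0494). These contrasts share libraries with one another. Fitted on the libraries of its own ages only, the 7 week against 4 week Col18a1 difference was 1.71 with an adjusted p of 0.121. The Col4a2 difference lost its call without a filter on low counts (adjusted p = 0.0605), with relative-log-expression size factors (0.052) and without the libraries of low count (0.0798).

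Sums of cell type markers differed between the genotypes in the granulosa libraries. Granulosa markers averaged 3621, 3336 and 2755 CPM in wild type at the 3 ages, below the 6039, 4496 and 3882 CPM in knockouts. Oocyte markers, all 12 with counts except at 6 months, where Zp1, Zp2 and Zp3 were not listed, summed to 158 CPM (13.4 to 920) in wild type and 21.1 (11.0 to 30.6) in knockouts at 4 weeks, to 191 (2.85 to 357) and 41.2 (20.1 to 104) at 7 weeks, and to 18.5 (8.94 to 46.0) and 34.7 (22.2 to 57.9) at 6 months. The 4 week wild type mean was raised by library 6, at 920 CPM. Erythroid markers summed to 292 CPM (26.1 to 890) in wild type and 18.8 CPM (9.23 to 40.9) in knockouts at 4 weeks, with 5 of 7 genes having counts and Slc4a1 among those not listed, and to 364 (30.1 to 876) and 56.5 (2.58 to 163) at 6 months. Immune markers, all 14 with counts, summed to 1189 (451 to 2147) and 449 (285 to 642) CPM at 4 weeks and to 1657 (262 to 4944) and 649 (264 to 1123) at 6 months. At 7 weeks the genotypes overlapped widely on both lists (means of 115 and 119 erythroid, 1350 and 1051 immune). Luteal markers, all 10 with counts, averaged 14958 CPM in wild type and 8781 in knockouts at 4 weeks, with 17224 against 10471 at 7 weeks but 10362 against 12175 at 6 months. Surface epithelium markers summed to 1050 (580 to 1856) in wild type and 331 (148 to 465) in knockouts at 7 weeks. Theca and stroma markers, which would come with interstitial matrix, averaged 762 and 718 CPM, 744 and 707, and 615 and 628 at the 3 ages, with Tcf21 and Dpt not listed. Serpinf1 and Dcn from that list passed as higher at 6 months.

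Of the 10 members past the test at 4 weeks, Col18a1 and Col6a3 still passed with the erythroid sum as a covariate, and Col18a1, Col5a1, Col6a3 and Lama4 with the immune sum. Calls that ended with the erythroid sum included those of Col4a1 (log2 1.47, adjusted p = 0.176), Col4a2 (1.24, 0.544), Col5a1 (-1.39, 0.422), Fn1 (-1.59, 0.475), Lama4 (-1.80, 0.53), Loxl1 (0.69, 1) and Nid2 (2.06, 0.931). The log2 values without the covariate were 1.23 for Col4a1, 1.03 for Col4a2, -1.88 for Col5a1, -1.64 for Fn1, -2.02 for Lama4, 1.62 for Loxl1 and 2.24 for Nid2, so of these the Loxl1 estimate moved most. With the immune sum they included Col4a1 (0.199), Col4a2 (0.45), Fn1 (0.429), Loxl1 (0.152) and Nid2 (0.608). At 6 months 5 of the 11 members kept their call with the erythroid sum and 7 with the immune sum. The erythroid sum ended those of Col15a1 (0.196), Col4a2 (0.571), Col5a1 (0.194), Lox (0.681), Nid1 (0.468) and Sparc (0.745), and the immune sum those of Col15a1 (0.0618), Col4a2 (0.0507), Lox (0.0954) and Nid1 (0.0589). The endothelial sum also ended the 4 week call of Nid2 (0.0551), and either the luteal or the endothelial sum ended the 6 month calls of Col15a1, Lox and Nid1 (0.0719 to 0.131). The fold changes of these called members kept their sign in the fits with a covariate. The sums tried in granulosa cells were the theca and stroma, endothelial, immune, erythroid and luteal ones. The granulosa and oocyte sums were not tried. Neither was the surface epithelium sum, whose genotypes did not overlap at 7 weeks. At 7 weeks Col4a1, Col4a2 and Loxl2 passed with each sum that was tried. The Col6a3 call at that age ended with the luteal (0.0538), immune (0.07), erythroid (0.0586) and endothelial (0.051) sums, and the Nid2 call with the luteal sum (0.0652). Because these sums differ between genotypes, a covariate and the genotype are partly the same variable. Their part in the results was not tested beyond these fits.

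Genes that process collagen, cleave the matrix or bind it were read beside the members, as 4 lists without members. Counts on these lists stand beside the 2.33%, 0.8% and 12.6% of all genes that passed at 4 weeks, 7 weeks and 6 months. Of the other matrix proteins, Thbs4, a thrombospondin that binds collagens, fell at every age. It was 22.7 ± 11.8 CPM in knockouts and 262 ± 91.8 in wild type at 4 weeks (log2 -3.60 ± 0.37), 15.1 ± 8.02 against 228 ± 34.8 at 7 weeks (-3.92 ± 0.38), and 11.4 ± 3.35 against 247 ± 60.9 at 6 months (-4.29 ± 0.24). Smoc1, a calcium-binding basement membrane protein of the Sparc family, rose at every age (66.6 ± 16.3 against 30.3 ± 9.43 CPM at 4 weeks, 55.4 ± 7.98 against 11.7 ± 5.87 at 7 weeks, 19.4 ± 6.49 against 8.67 ± 3.17 at 6 months). Of the tested genes on that list, 3 were higher and 4 lower of 30 at 4 weeks, 1 and 1 of 27 at 7 weeks, and 9 and 4 of 31 at 6 months. Thbs1 went from higher at 4 weeks (log2 1.60 ± 0.28) to lower at 6 months (-0.84 ± 0.25). Fbn2, a microfibril protein, was lower at 6 months (log2 -4.63 ± 0.74).

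Among 21 tested proteases and inhibitors, Mmp16 and Mmp2 rose and Adamts1 fell at 4 weeks, Mmp16 and Adamts9 rose at 7 weeks, and at 6 months Timp4, Mmp23, Timp3, Adamts1 and Mmp11 rose and Mmp14 fell. Mmp16, a membrane-bound metalloprotease, was 14.2 ± 5.59 CPM in knockouts against 3.49 ± 2.04 at 4 weeks (log2 1.97 ± 0.47) and 11.8 ± 2.30 against 2.44 ± 1.38 at 7 weeks (2.10 ± 0.45). Among 21 tested collagen-processing genes, Adamts2, the protease that trims procollagen, rose at 4 weeks (48.9 ± 17.2 against 15.1 ± 8.05 CPM, log2 1.61 ± 0.33). At 7 weeks 0 of the 21 passed in edgeR, while 7 had an unadjusted p under 0.05 and Adamts2 an adjusted p of 0.0572. The share of all genes at that unadjusted limit was not computed. At 6 months Pcolce, P3h2 and P4ha3 rose and Bmp1, Pxdn and Plod1 fell. Of the matrix receptors, 1 rose and 2 fell of 22 tested at 4 weeks, 1 rose of 23 at 7 weeks, and 2 rose and 5 fell of 23 at 6 months. Those 5 were Itga2, Itga6 and Itgb1, which are integrin chains for collagen and laminin, Dag1, a laminin receptor, and Sdc3, a syndecan. Sdc3 had also fallen at 4 weeks (54.6 ± 16.3 against 124 ± 31.9 CPM, log2 -1.25 ± 0.22).

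In oocytes no member passed the knockout comparison at any age. Of the members tested, 0 of 24 passed at 4 weeks (0.00924% of all genes did), 0 of 29 at 7 weeks (0.154%) and 0 of 26 at 6 months (0.00818%) in edgeR. DESeq2 and limma voom also called 0. The unadjusted p was under 0.05 for 0 members at 4 weeks, 3 at 7 weeks and 2 at 6 months, without a computed share of all genes. The 3 at 7 weeks were Col4a1 (4.39 ± 2.40 CPM in 12 knockout and 15.1 ± 15.1 in 5 wild type libraries, log2 -1.64 ± 0.49, adjusted p = 0.151), Col4a2 (log2 -1.21 ± 0.39) and Sparc (log2 -1.60 ± 0.58), all genes of far higher level in granulosa cells. Col4a1 was at 22.8, 38.1, 4.48, 4.41 and 5.57 CPM in the 5 wild type oocyte libraries, in which granulosa markers summed to 97.4, 406, 93.5, 93.7 and 117 CPM. For Col4a1 the first and second libraries were above the other 3, the second library was the highest on both measures, and the part of granulosa RNA in these values was not tested. The 2 at 6 months were Agrn (log2 1.62) and Col4a1 (log2 -1.56). Col6a3, which had fallen in knockout granulosa cells at each age, had oocyte means of 42.4 CPM in knockouts against 33.7 in wild type at 4 weeks, 41.0 against 44.4 at 7 weeks, and 24.3 against 31.0 at 6 months. Whether its knockout effect differs between the cell types was not tested.

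Levels of most members differed between granulosa cells and oocytes, as did those of most genes. Wild type libraries were compared within each age, in 1 fit of all 12 groups. The comparison covered the 22 members listed in all 6 tables and past the filter. Members that any table leaves out, such as Hspg2, Nid2, Lama2 and Col6a6, were not tested between the cell types. In granulosa cells 11 members were higher and 7 lower at 4 weeks, 11 higher and 8 lower at 7 weeks, and 12 higher and 7 lower at 6 months. That was 81.8%, 86.4% and 86.4% of them, beside 81.1%, 74.4% and 83.6% of all genes. The members' median log2 difference was 1.12, 1.40 and 1.74, and that of all genes 0.24, 0.25 and 0.25. Higher in granulosa cells at each age were Sparc (log2 7.89, 6.72 and 7.22), Col4a1 (6.07, 3.64 and 5.17), Col4a2 (5.87, 4.00 and 5.40), Lamb2 (5.77, 5.33 and 4.63), Fn1 (5.70, 5.76 and 4.62), Lama1 (5.46, 4.50 and 4.56), Nid1 (4.57, 2.69 and 5.41), Loxl3 (4.23, 4.05 and 3.62), Agrn, Lamc1 and Loxl1.

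The oocyte's leading member was Lamb1, a laminin beta chain (chr12:31265234-31329644). Its mean was 715 ± 236 CPM in oocytes against 118 ± 54.7 in granulosa cells at 4 weeks, 1285 ± 740 against 89.2 ± 22.0 at 7 weeks, and 725 ± 348 against 105 ± 35.9 at 6 months. The cell types did not overlap at any age (log2 -3.15, -4.14 and -3.24). Per kilobase Lamb1 reached 122, 220 and 124 CPM in oocytes, and the next members at 4 weeks were Lama2 (9.35 CPM per kilobase), Col9a3 (6.49), Col6a6 (6.07) and Lama4 (5.65). Lama4 (log2 -2.11, -2.69 and -2.91), Lama5 (-2.47, -2.59 and -2.57), Col25a1 (-2.86, -3.28 and -5.26), Col24a1, Col14a1 and Col4a3 were also lower in granulosa cells at each age. Lama2, the alpha chain of muscle laminin, held 91.7, 98.1 and 79.9 CPM in wild type oocytes, beside 0.464 CPM in granulosa cells at 4 weeks, and it was not listed in the 7 week and 6 month granulosa tables. Col6a6, a further type VI chain, held 55.6, 67.7 and 51.9 CPM in wild type oocytes. Lamb1 means in knockout oocytes were 699 ± 387, 1020 ± 375 and 690 ± 159 CPM at the 3 ages, and the genotypes' difference passed at none of them.

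**Figure D4:**
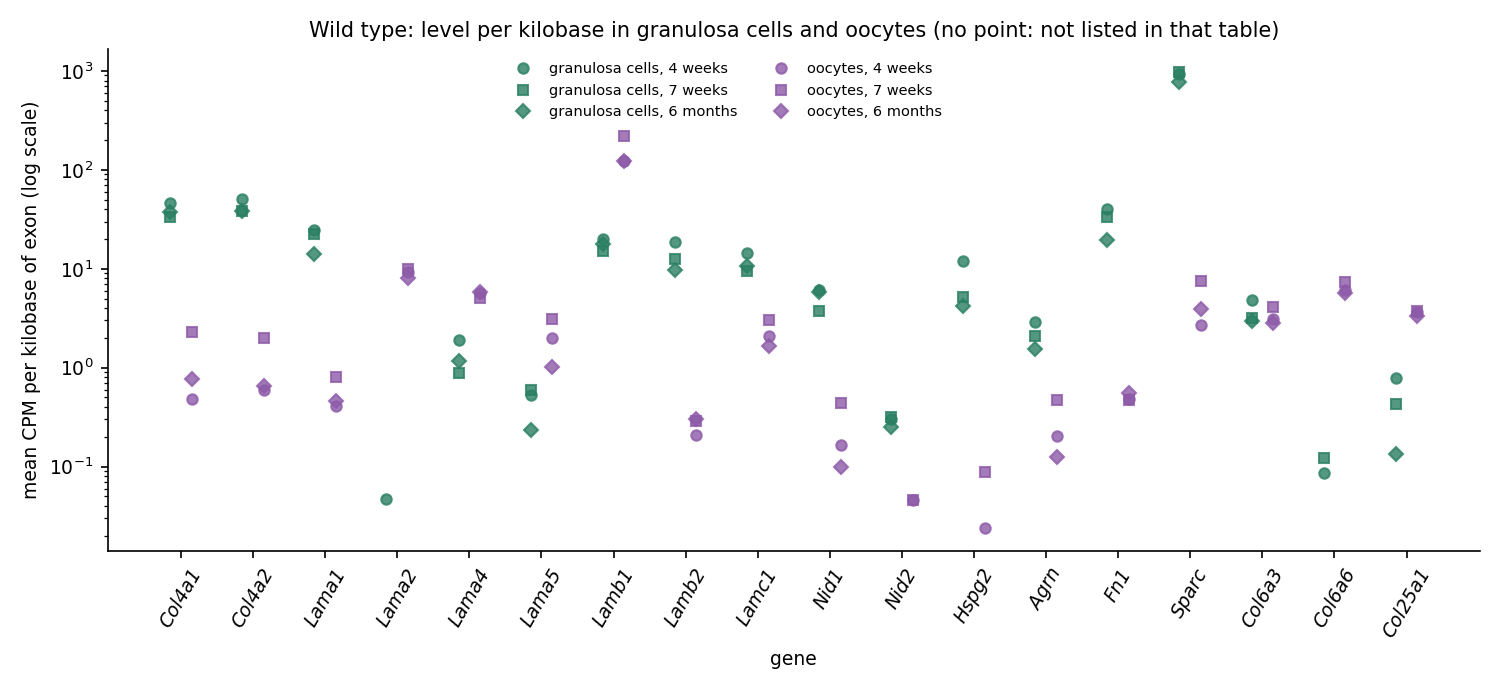
Wild type levels of 18 members in granulosa cells and oocytes, as CPM per kilobase of transcript on a log axis, at each age. Points are group means; Sparc leads in granulosa cells (929 at 4 weeks) and Lamb1 in oocytes (122 at 4 weeks), and type IV chains lie far apart between the cell types.

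In wild type granulosa cells several basement membrane genes had lower levels at 6 months than at 4 weeks. The ages were deposited separately, so age cannot be told apart from other differences between the deposits. Between 4 weeks and 6 months 7 of 41 tested members passed (17.1%), all lower at 6 months, beside 8% of all genes. They were Hspg2 (59.3 against 170 CPM, log2 -1.43 ± 0.35), Lama1 (134 against 235, -0.74 ± 0.18), Lamb2 (54.6 against 104, -0.86 ± 0.28), Agrn (12.2 against 22.4, -0.77 ± 0.24), Col4a5 (5.43 against 14.1, -1.26 ± 0.31), Col6a2 (3.95 against 15.9, -1.97 ± 0.34) and Col25a1 (0.925 against 5.48, -2.47 ± 0.66). All 7 had overlapping groups, and the calls of Agrn (adjusted p = 0.0627) and Lamb2 (0.111) ended with limma voom. Between 4 and 7 weeks, and between 7 weeks and 6 months, no member passed in edgeR (0% and 1.36% of all genes), and limma voom also called 0. An unadjusted p under 0.05 was found for 9 and 10 members. The share of all genes at that unadjusted limit was not computed, so nothing is read from these counts. The same wild type libraries stand in the knockout comparisons, and these age contrasts share groups.

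In wild type oocytes Lama5 was lower at 6 months (11.6 ± 5.98 CPM, n = 11) than at 4 weeks (22.5 ± 8.17, n = 12; log2 -0.92 ± 0.24) and 7 weeks (35.2 ± 15.0, n = 5; log2 -1.39 ± 0.29). Of 30 tested members, 1 passed between 4 and 7 weeks (3.33%, beside 0.824% of all genes). Between 4 weeks and 6 months 4 passed (13.3%, beside 15.4%), and between 7 weeks and 6 months 2 (6.67%, beside 25.7%). Both shares that involve 6 months were thus below those of all genes, and age cannot be told apart from the separate deposits. Besides Lama5, Col9a3 (9.26 against 19.8 CPM), Col19a1 (2.25 against 4.95) and Col13a1 (4.97 against 9.97) passed as lower at 6 months than at 4 weeks. Col4a1 was higher at 7 weeks than at 4 weeks (log2 2.05 ± 0.49, adjusted p = 0.0422), through the first and second of the 5 wild type libraries named above, and its call ended without a filter on low counts (adjusted p = 0.0501), on the contrast's own libraries (0.0863) and with limma voom (0.0608).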

How the data were processed

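RNA of granulosa cells and oocytes was sequenced by Smart-seq2, per the labels' protocols. The authors deposited, for each age and cell type, estimated counts per gene and a second table of normalized signal, and per the submitters' processing notes STAR, Partek and DESeq2 were used on mm10; versions, annotation and how reads were shared between genes are not given in the sources used here. Of the count values 82.0% to 84.9% were whole numbers, and all were rounded. The tables list only part of the genes, and a gene that a table leaves out is called not listed. The genotypes were compared inside each table by edgeR 4.0.16 (filterByExpr, TMM factors, robust quasi-likelihood test, R 4.3.3), with Benjamini-Hochberg adjustment over all genes tested and a threshold of 0.05. CPM use the library total and fold changes the TMM-scaled total, so they can differ slightly. Errors of log2 fold changes are the estimate divided by the square root of F. Contrasts between ages or cell types used 1 fit over the groups concerned. Lengths, coordinates and overlaps came from GENCODE vM21 (GRCm38), and promoter sequences from RefSeq (GRCm38.p6). Alternatives were limma voom 3.58.1, DESeq2 1.42.0, limma on log2 of the deposited normalized signal plus 1, other size factors and no filter. Further ones were removal of the trend of level with transcript length, leaving out libraries, marker covariates and the replicate number as a block. The fit was tested on simulated counts.

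The members and lists were chosen with earlier results of these data known, and named genes are the members past a test, the type IV, laminin, nidogen, proteoglycan and lysyl oxidase members, the leading members of the other families and the lists' smallest p-values; a few more were named after their values were seen. Some genes enter the counts and sums but are not reported here by name. For 1 library of the 7 week knockout oocytes the labels give the group only. The replicate numbers were checked for pairing: only in the 7 week oocytes did all 4 pairs of same-numbered libraries correlate above 0.1, and the labels do not say that a number marks a shared animal or day.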

Additional observations from a re-analysis of the deposited data

Results flagged for a closer look

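In 3 of the 41 groups of 4 to 10 libraries that were checked on called members, 1 library stood apart from the rest, and chance alone marks about 1 in 20 groups. Knockout granulosa library 6 at 4 weeks had the lowest Lama4 level, 0.711 CPM. Wild type granulosa library 2 at 7 weeks had the lowest Col4a1 level, 97.7 CPM. Knockout granulosa library 4 at 6 months had the highest Nid1 level, 30.7 CPM.

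The knockout effect in granulosa cells differed between ages for 5 members, by the interaction term (edgeR). The share of members that passed was 2.44% at 7 weeks against 4 weeks, 2.44% at 6 months against 4 weeks and 9.76% at 6 months against 7 weeks, beside 0.00699%, 0.657% and 10.4% of all genes. For Col18a1 the log2 fold change was higher by 1.72 (SE 0.30) at 7 weeks than at 4 weeks, and by 1.66 (SE 0.27) at 6 months than at 4 weeks. From 7 weeks to 6 months the effect changed by -2.44 (SE 0.65) for Col15a1, -1.56 (SE 0.36) for Col4a1, -1.22 (SE 0.35) for Loxl2 and -1.15 (SE 0.39) for Col4a2.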

How the results depend on the processing

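No called member changed direction under the alternatives that were run, and the counts of called members stayed within 1.5 times the reported count except as given here. At 4 weeks the count of 10 members became 2 with the erythroid covariate and 4 with the immune covariate, and 6 to 10 when 1 library was left out. At 7 weeks the count of 5 became 3 with the luteal covariate, 8 with DESeq2, 2 without the libraries below 1000000 counts, and 4 to 5 when 1 library was left out. At 6 months the count of 11 became 7 with the erythroid covariate (5 of them among the 11) and 7 with the immune covariate, and 7 to 11 when 1 library was left out. The 7 week against 4 week difference of the knockout effect went from 1 member to 0 on its own groups, and the 6 month against 4 week difference from 1 to 2 with relative-log-expression factors. In wild type granulosa cells the 6 month against 7 week count went from 0 to 1 on its own groups and to 1 without the low-count libraries. In wild type oocytes the 7 week against 4 week count went from 1 to 0 without a filter, on its own groups and with limma voom, and the 6 month against 7 week count from 2 to 1 on its own groups and to 4 with limma voom. Calls over all genes in these fits are not given here. A change in the member count is therefore not set against a change over all genes. The causes were not tested. Of the members without a test in granulosa cells, those listed there had low counts. Members not past the test did change sign, for example 8 of 29 in 7 week oocytes without wild type replicate 1 and 5 of 23 in 4 week granulosa cells with the immune covariate.

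With the replicate number as a block, 9, 6 and 9 members passed in granulosa cells at 4 weeks, 7 weeks and 6 months, and 10, 5 and 10 without the block on the same libraries. No member passed in oocytes with or without the block. Over all genes the block took the 6 month granulosa count from 1062 to 645 and the 7 week oocyte count from 1 to 38. Outside the 7 week oocytes some same-numbered libraries correlated positively and others negatively, so the check does not settle whether the numbers mark pairs. The block ended the call of Nid2 at 4 weeks (adjusted p = 0.0605) and of Lox (0.0611), Nid1 (0.136) and Sparc (0.128) at 6 months.

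Near the threshold, the 6 month calls of Col15a1 (adjusted p = 0.0676), Lox (0.0572) and Nid1 (0.0786) ended with limma voom, and that of Col4a2 without a filter (0.0551). In edgeR with the transcript length trend removed, the calls of Col15a1 (0.0627), Lox (0.0692) and Nid1 (0.0711) ended too. Those of Lox (0.0523) and Nid1 (0.0516) ended with limma on the deposited normalized signal, and that of Lox with relative-log-expression factors (0.0507). Among the other contrasts, the calls of Agrn (0.0656) and Col13a1 (0.0816) between 4 weeks and 6 months ended on the contrast's own groups and that of Lamb2 without a filter (0.0645). Between the cell types, that of Col6a3 at 7 weeks ended with relative-log-expression factors (0.176), that of Col4a3 at 7 weeks with limma voom (0.08) and that of Loxl1 at 6 months without the low-count libraries (0.071).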
